A study of Rattus norvegicus with 6 samples.

Results

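Osteopontin, the product of Spp1 (ENSRNOG00000043451), and its receptor CD44, the product of Cd44 (ENSRNOG00000006094), were followed at the RNA level in rat kidney after sub-total nephrectomy (SNx). Both genes were chosen by their rise in SNx over non-operated (NoOp) kidney in these same libraries, so the rise is described here and is not tested. They are 2 of the 23487 genes of the deposited count table, and both were among the 13644 genes kept for the comparison and the 12135 genes of the authors' normalized table. Bulk RNA was sequenced in 3 SNx and 3 NoOp kidney libraries. Per the study's methods the animals were male Wistar Han rats, with 3 in each group. The SNx animals had part of the right kidney resected and the left kidney removed in a later operation, and were killed when proteinuria or serum creatinine had passed a set level, so no single time after surgery applies to them. The treatment label and the methods give the NoOp animals as non-operated, while figure legends of the study call its controls sham. With non-operated controls, loss of kidney tissue cannot be told apart from the operation itself.

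Osteopontin is a secreted, heavily phosphorylated glycoprotein of the SIBLING family (small integrin-binding ligand, N-linked glycoproteins). It binds integrins through an RGD motif and also binds CD44. In the healthy kidney it is made chiefly by cells of the loop of Henle and the distal nephron and enters the urine, where it hinders crystal growth. In the injured kidney other tubule cells and macrophages make it too, and it attracts macrophages. CD44 is a transmembrane receptor whose main ligand is hyaluronan, a sugar polymer of the extracellular matrix. It is scarce in healthy kidney and is carried by injured tubule cells, activated parietal cells of the glomerulus and leukocytes, and its transcripts are spliced into many forms that differ in their variant exons. In whole-kidney RNA a larger number of cells that make a transcript cannot be told apart from more of the transcript in each cell.

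The stretches of 250 bases before the start of each gene are shown because both genes are described as a pair that rose together. They are taken from RefSeq on the rat build GRCr8, which is a later build than the rn6 used for the deposited files, and are written 5′ to 3′ on the minus strand, on which both genes lie. The Spp1 stretch is chr14:5619805-5620054 and the Cd44 stretch is chr3:109699425-109699674. Capitals mark matches to the motifs searched.

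Spp1: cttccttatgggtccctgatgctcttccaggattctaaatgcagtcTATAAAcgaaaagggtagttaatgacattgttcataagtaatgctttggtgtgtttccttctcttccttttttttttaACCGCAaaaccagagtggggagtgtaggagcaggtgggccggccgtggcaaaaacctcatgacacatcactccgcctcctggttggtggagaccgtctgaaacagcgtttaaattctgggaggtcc

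Cd44: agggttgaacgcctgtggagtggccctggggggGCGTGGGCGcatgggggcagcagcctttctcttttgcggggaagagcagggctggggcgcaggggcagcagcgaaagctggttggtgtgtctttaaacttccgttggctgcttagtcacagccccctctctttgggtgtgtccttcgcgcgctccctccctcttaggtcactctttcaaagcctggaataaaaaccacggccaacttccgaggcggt

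The motifs were chosen with both stretches in view and were searched on both strands. The Spp1 stretch held the letters of a TATA box (TATAAA) from 204 to 199 bases before the start, and 12.9% of 33469 RefSeq stretches of the same length held one. It also held a form of the RUNX motif (TGCGGT), read on the opposite strand, from 126 to 121 bases before the start, which 5.02% of the stretches held. The Cd44 stretch held the EGR1 motif (GCGTGGGCG) from 217 to 209 bases before the start, a match that 0.478% of the stretches had. Neither window held the more common RUNX form (TGTGGT), which 14.5% of the stretches had. Neither held the AP-1 motif (TGANTCA), present in 6.34%, nor an E-box (CACGTG), present in 5.59%. A CCAAT box (CCAAT, 34.0% of stretches) was not found in them, and the same held for a GC box (GGGCGG, 30.5%). The matches shown do not overlap one another. The Cd44 stretch was the richer in G and C, at 60.8% against 46.8% for Spp1 and a median of 51.2% over all stretches. The matches are letters in a reference sequence, and binding was not measured. Longer transcript models of both genes begin further upstream in RefSeq, so other start sites exist outside what is shown. In RefSeq gene order Spp1 lies on chromosome 14 between Pkd2, a gene of polycystic kidney disease, and Mepe, with Ibsp, Dmp1 and Dspp beyond it. Mepe, Ibsp, Dmp1 and Dspp are the other members of the SIBLING family. Cd44 lies on chromosome 3 between Slc1a2 and Pdhx.

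The 6 libraries held from 9572955 to 13140864 estimated counts, and each SNx library (at most 10707643) was smaller than each NoOp library (at least 11183768). Within each group no library repeated another. The chi-square per degree of freedom between pairs from the same group ran from 9.43 to 78.6, above what counting error alone would give. Levels are given as CPM, counts per 1000000 counts of the library, scaled between libraries with TMM (trimmed mean of M-values) factors. The kidney label was not checked against marker genes, because the identifiers are not paired with symbols in the tables used here, and for the same reason the levels of macrophage, tubule and other cell markers beside Spp1 and Cd44 were not analysed here.

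Spp1 was among the more abundant transcripts of the non-operated kidney and became one of the most abundant in SNx. NoOp replicates 1, 2 and 3 held 2451, 3134 and 1791 estimated counts of it. SNx replicates 1, 2 and 3 held 96715, 113548 and 50706. As a share of all counts this was 0.0211%, 0.0238% and 0.0160% in NoOp and 0.978%, 1.06% and 0.530% in SNx. Close to 1 count in every 100 was thus Spp1 in SNx replicates 1 and 2. Among all 23487 genes Spp1 held rank 720, 625 and 1021 by counts in the NoOp libraries and rank 7, 5 and 11 in the SNx libraries.

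On the TMM-scaled level Spp1 lay at 238, 248 and 172 CPM in NoOp and at 9312, 8774 and 5357 CPM in SNx. The groups did not overlap, and the lowest SNx library was 21.6-fold above the highest NoOp library. The group means were 219 ± 41.4 CPM in NoOp and 7814 ± 2145 CPM in SNx (SD, n = 3 each). Fitted by limma, the change was 5.13 on the log2 scale with a standard error of 0.27, or 34.9-fold. Against the NoOp mean on the log2 scale, SNx replicates 1, 2 and 3 were 43.0-fold, 40.5-fold and 24.7-fold higher. SNx replicate 3 thus carried the smallest rise of Spp1, and NoOp replicate 3 the lowest level of its group.

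Cd44 was a transcript of ordinary level in the non-operated kidney. Its estimated counts were 145, 218 and 184 in NoOp replicates 1 to 3, against 1320, 1754 and 1004 in SNx replicates 1 to 3. The highest NoOp count, 218, has an exact 95% Poisson interval from 190 to 249, and the lowest SNx count, 1004, one from 943 to 1068. These intervals treat the estimates as plain counts and cover counting error only, not the error of the estimation or the spread between animals. Cd44 held rank 8225, 7769 and 7649 of all genes by counts in the NoOp libraries and rank 1287, 1015 and 1600 in the SNx libraries.

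The TMM-scaled level of Cd44 was 14.1, 17.2 and 17.7 CPM in NoOp and 127, 136 and 106 CPM in SNx. Again the groups did not overlap, with the lowest SNx library 6.003-fold above the highest NoOp library. The group means were 16.3 ± 1.95 CPM and 123 ± 15.2 CPM (SD, n = 3 each). The limma estimate was 2.90 on the log2 scale with a standard error of 0.16, or 7.46-fold. SNx replicates 1, 2 and 3 were 7.74-fold, 8.26-fold and 6.46-fold above the NoOp mean, so SNx replicate 3 was the lowest for the receptor as it was for the ligand. In NoOp the order differed between the genes, since replicate 1 had the lowest Cd44 and replicate 3 the highest.

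**Figure D1:**
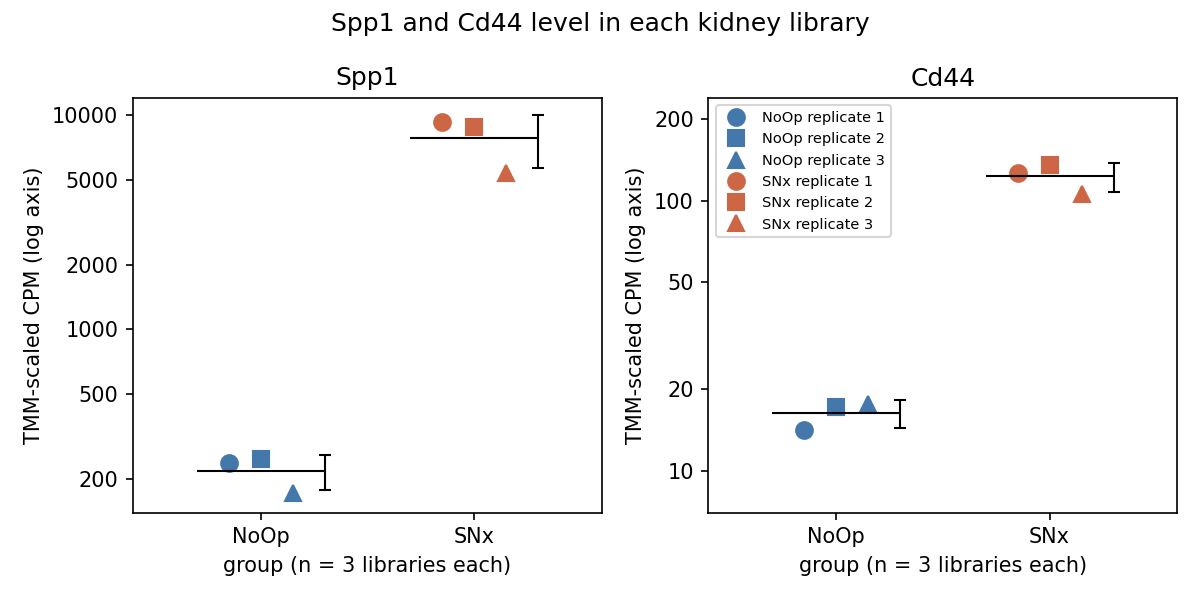
TMM-scaled level (CPM, log axis) of Spp1 and Cd44 in each of the 3 NoOp and 3 SNx libraries, with one symbol shape per replicate; horizontal lines are group means and bars the SD. For both genes all SNx points lie above all NoOp points, from 5357 against 248 CPM for Spp1 and from 106 against 17.7 CPM for Cd44, and SNx replicate 3 is the lowest SNx library.

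The library titles carry numbers that fall into 2 ranges, the first with NoOp replicate 1 and SNx replicates 1 and 2, the second with NoOp replicates 2 and 3 and SNx replicate 3. What the ranges stand for is not given in the labels. The Spp1 difference on the log2 CPM scale was 5.24 within the first range and 4.70 within the second. For Cd44 it was 3.20 and 2.59. The rise of both genes was thus present within each range and smaller in the second. Each range holds a group with only 1 library, NoOp replicate 1 in the first and SNx replicate 3 in the second. For Cd44 the NoOp mean differed as well, at 3.84 in the first range and 4.14 in the second, and NoOp replicate 1 is also the library in which the raw and the normalized table differ most for Cd44. The part of the ranges in these sizes cannot be told apart from that of these single libraries.

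Ligand and receptor did not rise by the same amount. The number of Spp1 counts per Cd44 count needs no scaling between libraries and was 16.9, 14.4 and 9.73 in NoOp replicates 1, 2 and 3. In SNx replicates 1, 2 and 3 it was 73.3, 64.7 and 50.5. The groups did not overlap, with means of 13.7 ± 3.64 and 62.8 ± 11.5 (SD, n = 3 each), and the ratio was 4.66-fold higher in SNx on the log2 scale. The ratio itself depends on the lengths of both transcripts and says nothing of which is the more abundant molecule. As both genes were chosen on this contrast, the difference between their rises is a description.

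Set among all genes, a rise as such was common in SNx. Of the 13644 genes tested, 19.2% were higher with a limma Benjamini-Hochberg adjusted p under 0.05, and in 27.1% all 3 SNx libraries lay above all 3 NoOp libraries. The 19.2% stand for 2620 genes, a number that fell to 1497 without NoOp replicate 3 and to 1575 without NoOp replicate 2. Both Spp1 and Cd44 belong to these shares by the way they were chosen. By size of the log2 fold change Spp1 was number 49 and Cd44 number 322 from the top. Among the 62 genes with a mean level of at least 1000 CPM over both groups Spp1 rose the most. It passed that cut only through its SNx level, with means of 219 CPM in NoOp and 7814 CPM in SNx. Among the 1836 genes of at least 100 CPM it was number 3, and among the 9622 genes of at least 10 CPM Spp1 was number 13 and Cd44 number 70. These positions describe the values on which the genes were chosen. In mean level 5.42% of tested genes lay above Spp1 in NoOp and 0.0586% in SNx, where it was number 9. For Cd44 the shares were 57.9% in NoOp and 9.43% in SNx.

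**Figure D2:**
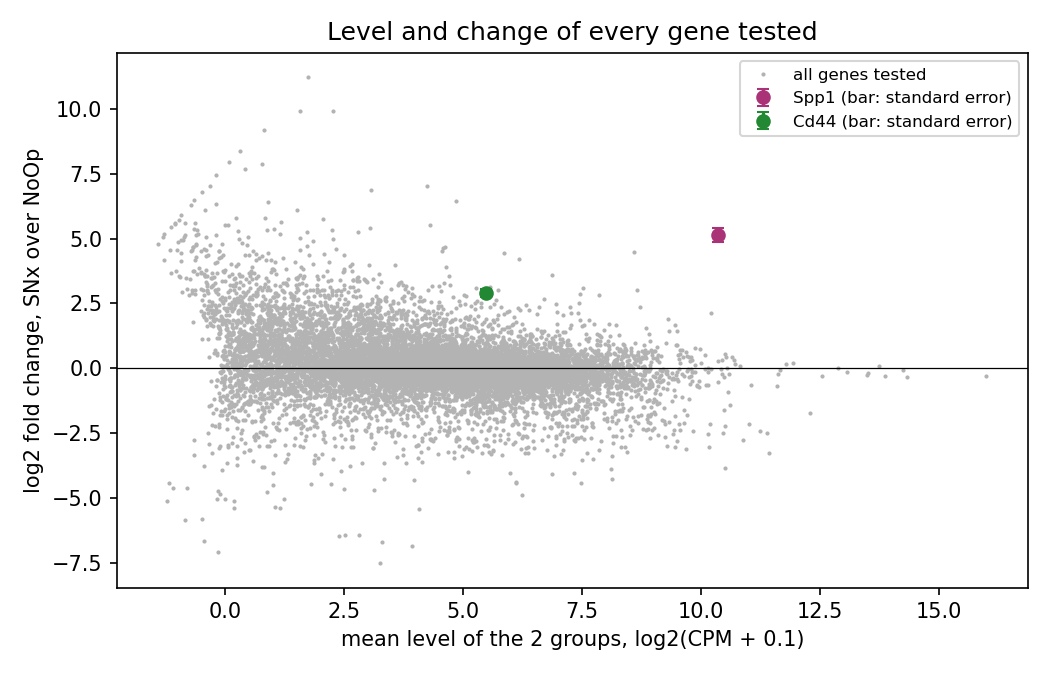
Log2 fold change of SNx over NoOp (limma) against the mean level of both groups, as log2(CPM + 0.1), for all 13644 genes tested in grey; Spp1 and Cd44 are marked with the standard error of their fold change. Spp1, at 5.13, stands above every other gene averaging at least 1000 CPM over both groups, a cut it passed only through its SNx level. Cd44, at 2.90, was number 70 by rise among the 9622 genes averaging at least 10 CPM over both groups.

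The scaling of the libraries moved these sizes by a set amount. With total counts in place of TMM, the middle gene of those tested stood at a log2 fold change of 0.24 (0.01 with TMM), 24.8% of genes were called higher, and calls split into 3387 higher and 1402 lower against 2620 and 2271. On that scale the change was 5.35 for Spp1 and 3.13 for Cd44. The authors' normalized table gave 5.15 for Spp1 and 2.99 for Cd44.

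**Figure D3:**
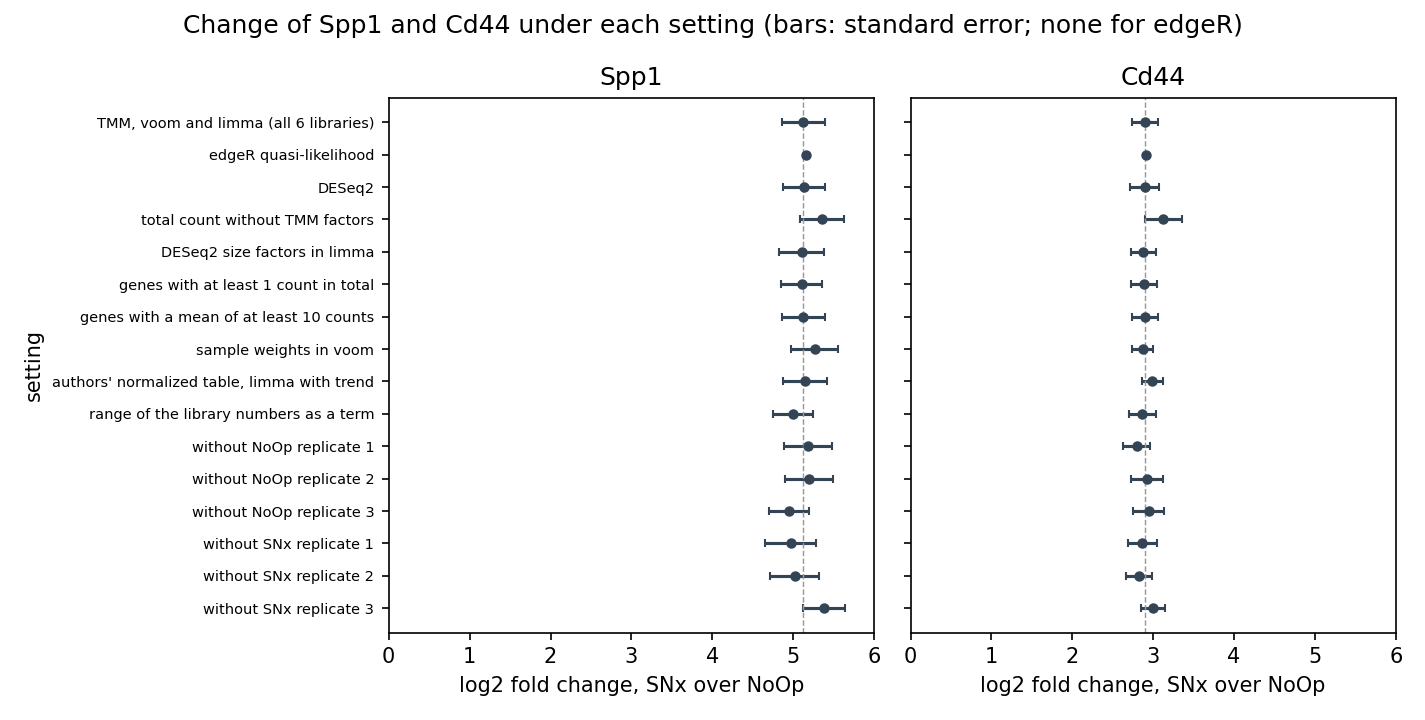
Log2 fold change of SNx over NoOp for Spp1 and Cd44 under the reported setting (top, dashed line) and 15 other settings, with standard errors as bars where the tool gives one. Spp1 stays between 4.95 and 5.38 and Cd44 between 2.79 and 3.13.

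The spread between animals was larger for Spp1 than for Cd44. The SD of Spp1 on the log2 scale was 0.29 in NoOp and 0.44 in SNx, wider than in 71.5% and 78.3% of the tested genes. That of Cd44 was 0.18 in both groups, near the median gene at 0.18 in NoOp and 0.23 in SNx. Counting error alone would give 0.0299 for Spp1 and 0.108 for Cd44 in NoOp, so nearly all of the Spp1 spread lay beyond counting error, while for Cd44 in NoOp counting error was of the same order as the spread. In SNx counting error fell to 0.00519 and 0.0402, below the spread of both genes.

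SNx replicate 3 had the lowest level of both genes among the SNx libraries, and its place was compared with that of the genes that rose. Spp1 and Cd44 were not taken out of those genes. For each SNx library in turn, genes were selected from the other 5 libraries (higher, limma adjusted p under 0.05, a log2 fold change of at least 2). Its level was then expressed in percent of the way from the NoOp mean (0%) to the other SNx libraries' mean (100%). SNx replicate 3 lay at a median of 74.9% over 862 genes, with quartiles of 61.3% and 88.8%. It reached 86.0% for Spp1 and 89.8% for Cd44, above 71.0% and 77.0% of those genes. Spp1 and Cd44 were themselves chosen on their rise in all 3 SNx libraries, this one included, and a given shortfall on the log2 scale is a smaller percentage of a larger rise, so their places are a description and are not on a par with those of the other genes. SNx replicate 1 lay at 109% for Spp1 and 103% for Cd44, with a median of 104% over 639 genes. SNx replicate 2 lay at 106% and 108%, with a median of 111% over 572 genes. In these 2 libraries both genes were inside the middle range of the genes that rose.

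**Figure D4:**
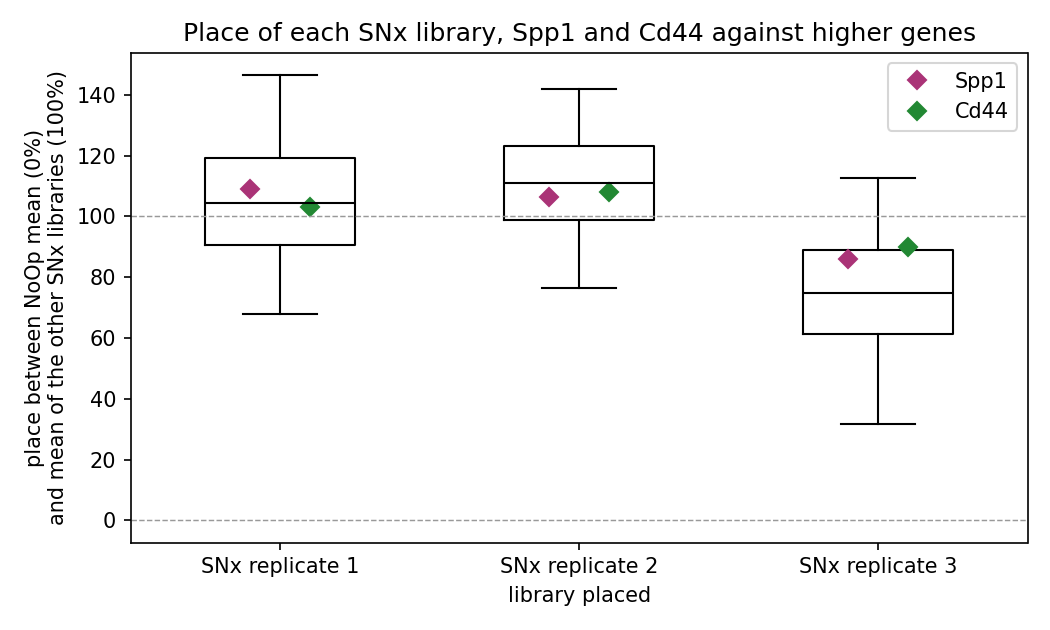
Level of each SNx library on the log2 CPM scale, in percent of the way from the NoOp mean (0%) to the other SNx libraries' mean (100%). Boxes show quartiles and median over the higher genes selected without that library, whiskers the central 90%, and diamonds Spp1 and Cd44, which in SNx replicate 3 stand at 86.0% and 89.8% against a median of 74.9%.

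The raw and the normalized table gave different pictures of Cd44 in the control kidneys. In the normalized table Cd44 lay at 3.96, 3.98 and 4.02 on the log2 CPM scale in NoOp replicates 1, 2 and 3, an SD of 0.030. That SD is below the 0.108 that counting error alone would give for Cd44 in NoOp, so it does not measure the spread between animals. From the raw counts the TMM-scaled log2 CPM was 3.84, 4.12 and 4.16, an SD of 0.18. In SNx the normalized values were 7.02, 7.16 and 6.75 and the TMM-scaled ones 6.99, 7.08 and 6.73. For Spp1 the tables differed little, with 7.90, 7.94 and 7.41 in NoOp and 13.20, 13.10 and 12.40 in SNx in the normalized table against 7.90, 7.96 and 7.43, and 13.18, 13.10 and 12.39.

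To measure the gap, normalized values were turned back into counts and divided by the raw count, and the log2 of this ratio was centred on its library's median. For Cd44 it was 0.14, -0.12 and -0.12 in NoOp replicates 1, 2 and 3. The SNx replicates 1, 2 and 3 gave 0.03, 0.07 and 0.02 for Cd44. For Spp1 it stayed between -0.0109 and 0.00837 in the 6 libraries. The SD of the ratio over 6 libraries was 0.106 for Cd44, larger than in 97.5% of 9125 genes (those averaging 100 counts or more), where the median was 0.0127. Among the 2284 genes within 1.5-fold of its mean count it was larger than in 97.9%. The rounding of raw counts to whole numbers moves the Cd44 ratio by at most 0.00497. NoOp replicate 1 stood apart from the other NoOp libraries by more than any 2 SNx libraries did from each other, with a cause that was not tested.

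In the group means the ratio stood at -0.032 in NoOp and 0.040 in SNx for Cd44, and at -0.0034 and 0.0046 for Spp1. The raw counts on which the genes were chosen enter this ratio, so it is described and not tested between groups. Against a rise of 2.90 on the same log2 scale, the whole range of the Cd44 ratio was small.

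**Figure D5:**
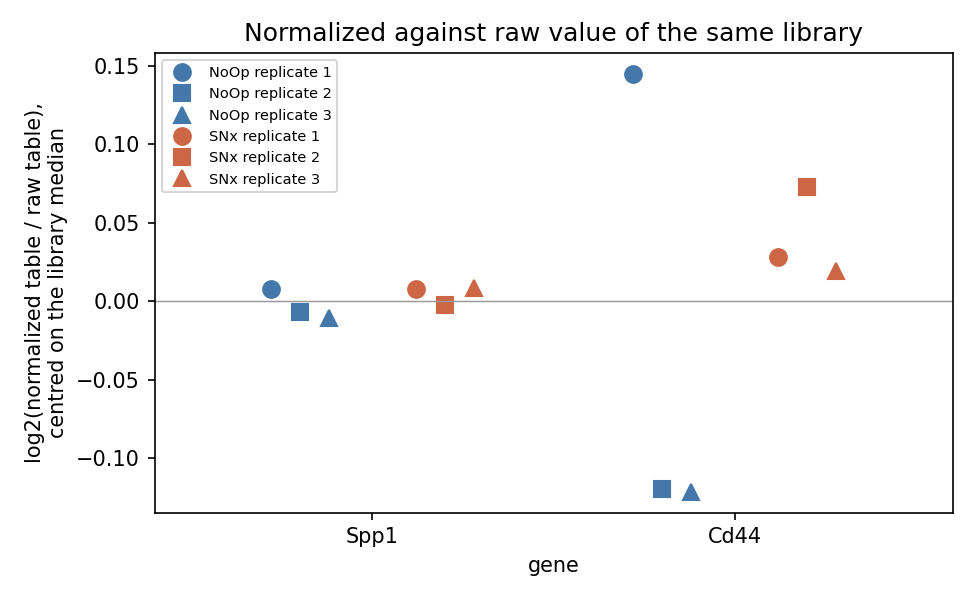
Log2 ratio of the authors' normalized value to the raw count of the same library, centred on the library median, for Spp1 and Cd44 in 3 NoOp and 3 SNx libraries. Spp1 lies between -0.0109 and 0.00837 throughout, while Cd44 runs from -0.12 in NoOp replicates 2 and 3 to 0.14 in NoOp replicate 1.

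The patterns of the genes over the 6 libraries were compared by Pearson's r of the TMM-scaled log2 CPM, as a description that the difference between the 2 groups sets in large part. Spp1 and Cd44 had an r of 0.992. Of 12494 genes with a mean of at least 1 on that scale, 0.640% were closer to Spp1 than Cd44 was, and 0.592% were closer to Cd44 than Spp1 was. An r above 0.95 with Spp1 was found for 1056 genes (8.45%) and with Cd44 for 934 (7.48%), and one as strong but of negative sign for 661 and 691. So many genes share the pattern that an r of this size singles out no gene. The nearest gene to Spp1 was ENSRNOG00000012094 (r of 0.99915), with 5.45, 5.06 and 3.46 CPM in the NoOp libraries and 135, 144 and 78.0 CPM in the SNx libraries. Like Spp1 it was lowest in replicate 3 of each group. The nearest to Cd44 was ENSRNOG00000020580 (r of 0.99919), with 5.83, 6.25 and 6.91 CPM in NoOp and 26.5, 28.4 and 24.3 CPM in SNx. It shared with Cd44 the lowest NoOp value in replicate 1 and the highest SNx value in replicate 2.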

How the data were processed

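RNA from 3 SNx and 3 NoOp rat kidneys was depleted of ribosomal RNA and sequenced as strand-specific, paired-end libraries, while the labels list polyA RNA as the molecule. Groups follow the treatment label, and replicates were numbered in order of deposition, so the numbers pair no animals. P-values set the difference between groups against the spread between these libraries, which limma estimates with information shared over all genes.

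The authors quantified transcripts with Salmon (per the labels, version not given in the sources used here) against an rn6 transcriptome and summarised them per gene. The raw table holds the authors' estimated counts as whole numbers, and the deposited normalized table holds log2 CPM values from voom, made from length-scaled estimates. Whether the raw counts were length-scaled too is not settled, so a change in transcript lengths could enter the CPM values and the comparison of the tables. All 12 single-library files held the values of their column.

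Counts were filtered by filterByExpr (minimum count 10, minimum total 15), scaled by TMM in edgeR 4.0.16, and fitted by voom and limma 3.58.1 in R 4.3.3, with a two-sided test and p-values adjusted over the 13644 genes by Benjamini-Hochberg (threshold 0.05). Log2 CPM used a prior count of 2. The fit was tested on simulated data. Both genes, and the lists planned around them, were chosen with earlier results of these data known, and Spp1 and Cd44 were not tested between groups. The comparison of the tables and the place of each SNx library were added after the data were seen. For the former, genes averaging 100 counts or more, none of them at 0, were used, and the normalized values were turned back with the offset of 0.5 counts.

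The reference tables paired 0 of the 23487 identifiers with a symbol. The study's supplementary sheets pair some of them, but the copies at hand are shortened and ordered by the authors' p-values, and by choice they were not used. The counts planned over integrins, hyaluronan enzymes, proteases and other osteopontin and CD44 genes, and over cell type markers, were therefore not made. The rule for named genes asked for the 5 nearest to each gene, and 1 each is named for the same reason. The names Spp1 and Cd44 come with the choice of the 2 identifiers. Per the study's methods RNA integrity ranged from degraded to good over its samples, and which library had which value is not given in the sources used here.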

Additional observations from a re-analysis of the deposited data

How the results depend on the processing

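The rise of Spp1 stayed within 1 SD between replicates of its reported 5.13 under all 15 other settings, from 4.95 without NoOp replicate 3 to 5.38 without SNx replicate 3. Cd44 did so under 14 of 15, from 2.79 without NoOp replicate 1, and moved further only with total counts without TMM factors, to 3.13, where the scaling itself raises the middle fold change of the tested genes. Leaving out 1 of 3 libraries can hardly move a group mean by more than that SD, so the 6 such settings could hardly fall outside it. Nor could they change the direction, since the groups did not overlap. Both genes were higher in SNx under every setting run: the quasi-likelihood test of edgeR, DESeq2 1.42.0, total counts, DESeq2 size factors, both other filters, sample weights, the authors' normalized table, a term for the library number ranges, and each library left out. Total counts lowered the number of lower genes called from 2271 to 1402. Leaving out 1 library gave from 2857 to 5764 genes called in place of 4891, from 1497 to 3201 higher and from 1360 to 2563 lower, the lowest each time without NoOp replicate 3 and the highest without SNx replicate 3. The r of Spp1 with Cd44, 0.992, ran from 0.990 to 0.997 when 1 library was left out, and the cause was not tested. Across 8 alternatives the nearest genes kept a rank of 10 or better. Other settings for the pathway and cell type lists were not run, since those lists could not be matched. Per the study's methods the groups were separate animals, so there was no pairing to use. With 3 animals a group and controls labelled as non-operated, the sizes describe these 6 kidneys.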
